A study of Mus musculus with 6 samples.

Results

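The 32 genes described here carry cholesterol through a cell: they make it, sense it, move it, store it and export it. They were chosen by symbol from the pathway, and all 32 had a row among the 24421 gene symbols of the count table. Their transcripts were counted in 6 mouse neurofibromas, which are benign nerve sheath tumours, on a C57BL/6J background. The 3 tumours of the group miR-155KONf1KO (MiRNC149, MiRNC640 and MiRNC670) lacked the microRNA miR-155 and Nf1. The 3 Nf1KO tumours, Nf803, Nf809 and Nf827, lacked Nf1 alone. In both groups floxed Nf1 (Nf1fl/fl) was removed by DhhCre, a Cre recombinase under the Dhh promoter, which is active in developing Schwann cells. Cells of a tumour in which the recombinase was never active keep Nf1. The labels name no cell type for the loss of miR-155, give no age or sex, and report no drug treatment. The tumours are numbered in the labels, which do not say that each came from its own animal, so p-values measure only the spread between these samples. The comparison was made to look for candidate miR-155 targets among genes that differ between the groups.

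Cells build cholesterol from acetyl-CoA through mevalonate and squalene. When sterol is scarce, SCAP escorts the factor SREBP-2, encoded by Srebf2, out of the endoplasmic reticulum, and the cleaved factor switches on the synthesis genes, while INSIG proteins hold the complex back when sterol is plentiful. Excess cholesterol is esterified by SOAT1 or exported by the transporters ABCA1 and ABCG1, which are induced through the oxysterol receptors LXR. In peripheral nerve, Schwann cells synthesise most of the cholesterol that goes into myelin.

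Several synthesis genes were higher in miR-155KONf1KO tumours, and the genes of sensing, storage and export did not move as one. Of the 20 synthesis genes, 5 rose and 0 fell when edgeR tested 15604 genes (quasi-likelihood, Benjamini-Hochberg adjusted p under 0.05), against 5.22% of all tested genes called higher, 4.74% called lower and 9.96% called either way. The called share was 25% of the synthesis genes and 15.6% of all 32 members. The 5 were Acat2, Hmgcs1, Fdft1, Nsdhl and Hsd17b7, with increases from 1.66-fold to 2.14-fold. None of the 12 genes outside synthesis was called by edgeR, and 1 of them, Soat1, had an unadjusted p under 0.05. The median log2 fold change was 0.60 over the synthesis genes and 0.12 over the others, beside 0.01 over all tested genes. These members were listed with earlier results of these data known, so the counts are a description.

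The libraries held 13061129 to 16333181 reads, and all 32 genes passed the filter on low counts. Mir155hg, the host transcript of miR-155, had 5, 3 and 1 reads in MiRNC149, MiRNC640 and MiRNC670, against 57, 66 and 71 reads in Nf803, Nf809 and Nf827. The Schwann cell genes Sox10 and Dhh were well expressed in every tumour (215 to 333 CPM and 471 to 723 CPM, where CPM is reads per 1e6 TMM-scaled reads). By Xist and Y-linked counts, MiRNC149, Nf803 and Nf827 were female and MiRNC640, MiRNC670 and Nf809 male. The summed level of 8 skeletal muscle markers was 196, 420 and 2250 CPM in MiRNC149, MiRNC640 and MiRNC670, against 56.0, 2439 and 8.50 CPM in Nf803, Nf809 and Nf827, with Acta1 and Myh4 at 0 reads in at least 1 tumour. MiRNC670 and Nf809 were thus rich in muscle transcripts, and adipocyte transcripts were highest in MiRNC640 and lowest in Nf809. Calls of named sterol and lipid genes that changed without MiRNC670 and Nf809 or without MiRNC640 and Nf809 are given with values beside each result. The exceptions are the 5 called synthesis genes, none of which was called in either fit, as given where the tumours are compared.

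The promoters of called synthesis genes are shown first, because the genes share a regulator that reads them. SREBP-2 binds the sterol regulatory element together with NF-Y, a factor of 3 subunits that binds the CCAAT box. The sterol element was searched as TCACNCCAC and the CCAAT box as CCAAT, on both strands, in RefSeq windows (GRCm38.p6) from 250 bases before to 50 bases after each transcription start. The table held 32 such windows for 26 of the members. Of the 32 windows, 1 had the sterol element, against 1.26% of the windows of tested genes. The one was that of Hmgcs1, where the element began at position -137 from the start. A CCAAT box stood in 23 of the 32 windows (71.9%), against 37.2% of the 14799 windows of tested genes, and in 16 of the 20 windows of synthesis genes. Other motifs searched on both strands were the E-box CACGTG (21.9% of the member windows, against 9.16% of those of tested genes) and the GC box GGGCGG (84.4%, against 58.2%). The DR4 element of LXR, also searched, was in 0 of the 32 windows, against 0.149% of those of tested genes and 0.231% of all 32851 windows. A motif this rare would seldom occur in 32 windows, so its absence is not informative. The called genes with a window and a CCAAT box were Hmgcs1, Nsdhl and Hsd17b7, and their 250 upstream bases follow, with matches to either motif in capitals. The lines give chr13:119690101-119690350 (plus strand), chrX:72918271-72918520 (plus strand) and chr1:169969206-169969455 (minus strand).
Hmgcs1: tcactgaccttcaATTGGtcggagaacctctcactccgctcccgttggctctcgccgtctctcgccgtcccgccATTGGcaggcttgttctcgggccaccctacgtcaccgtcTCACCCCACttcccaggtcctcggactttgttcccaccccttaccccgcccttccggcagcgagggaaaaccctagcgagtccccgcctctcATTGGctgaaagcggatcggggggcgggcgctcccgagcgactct
Nsdhl: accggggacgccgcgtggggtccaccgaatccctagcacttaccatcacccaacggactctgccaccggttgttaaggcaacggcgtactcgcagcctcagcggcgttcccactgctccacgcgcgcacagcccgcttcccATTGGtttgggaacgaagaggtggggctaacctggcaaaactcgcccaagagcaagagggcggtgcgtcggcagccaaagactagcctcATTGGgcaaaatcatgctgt
Hsd17b7: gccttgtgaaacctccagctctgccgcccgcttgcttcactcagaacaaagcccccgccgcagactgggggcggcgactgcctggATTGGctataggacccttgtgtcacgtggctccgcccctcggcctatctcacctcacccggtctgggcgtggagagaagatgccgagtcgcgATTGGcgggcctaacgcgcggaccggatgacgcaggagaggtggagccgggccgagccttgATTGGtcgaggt
In all 3 sequences the CCAAT boxes read ATTGG, so they lie on the strand opposite to the gene, and none shares a base with the sterol element. A match is a string of letters and not a shown binding site, and the absence of the sterol element says only that these letters are not in the window. Acat2, the other called gene with a window, had neither motif.

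The head of the pathway held 2 of the called genes. Acat2 encodes the cytosolic thiolase that joins acetyl-CoA units and lies on chromosome 17 (12942890 to 12960747, ENSMUSG00000023832.14). Its level was 18.5, 32.9 and 25.5 CPM in MiRNC149, MiRNC640 and MiRNC670, against 11.2, 13.4 and 11.5 CPM in Nf803, Nf809 and Nf827. The ranges did not overlap, and the log2 fold change was 1.09 (SE 0.24, edgeR adjusted p = 0.0357). Its counts are uncertain, because 39.1% of its windows of 50 bases also occur in annotated transcripts of other genes, its paralog Acat3 and its neighbour Tcp1. Acat3 itself had 1.29, 5.67 and 2.77 CPM in MiRNC149, MiRNC640 and MiRNC670, against 2.40, 1.17 and 3.21 CPM in Nf803, Nf809 and Nf827, and was not called.

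Hmgcs1 encodes the HMG-CoA synthase that commits these units to mevalonate (chromosome 13, 119690379 to 119708260, ENSMUSG00000093930.2). It had 141, 254 and 264 CPM in MiRNC149, MiRNC640 and MiRNC670, against 118, 94.0 and 96.0 CPM in Nf803, Nf809 and Nf827. MiRNC149 stood nearest to the Nf1KO tumours, and the other miR-155KONf1KO tumours were more than 2-fold above the Nf1KO mean. The averages were 220 ± 68.0 CPM in miR-155KONf1KO and 103 ± 13.6 CPM in Nf1KO (SD, n = 3 each), a log2 fold change of 1.10 (SE 0.25, edgeR adjusted p = 0.0377). Per kilobase of annotated exon, Hmgcs1 was also the highest of the 32 genes in miR-155KONf1KO, at 47.8 CPM per kilobase, against 22.4 CPM per kilobase in Nf1KO. Of its exon bases, 12.1% overlap the annotated gene Gm48342.

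The other mevalonate enzymes did not pass. Idi1, the isopentenyl diphosphate isomerase, and Fdps, the farnesyl diphosphate synthase, had equal log2 fold changes of 0.80 with SEs of 0.28 and 0.22, and edgeR adjusted p of 0.12 and 0.0607. Both genes share sequence with other genes, since 25.3% of the windows of Idi1 and 26.2% of those of Fdps occur in other annotated transcripts. Fdps ran from 13.1 to 16.2 CPM in miR-155KONf1KO and from 6.74 to 9.22 CPM in Nf1KO, with no overlap. Ggps1, which makes geranylgeranyl diphosphate for protein anchors on a side branch, ran from 66.8 to 74.2 CPM in miR-155KONf1KO and from 50.7 to 65.4 CPM in Nf1KO (log2 fold change 0.27, SE 0.14). The kinases Mvk and Pmvk, which phosphorylate mevalonate in sequence, stood at 0.06 (SE 0.26) and 0.30 (SE 0.22) in log2 fold change. Mvd, the decarboxylase of the next step, was the 1 mevalonate gene below 0, at -0.50 (SE 0.37), and rested on 31 to 44 reads in miR-155KONf1KO and 35 to 63 reads in Nf1KO. The groups overlapped for all 3 of these enzymes.

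The sterol branch held the other 3 called genes. Fdft1, the squalene synthase that commits farnesyl diphosphate to sterol (chromosome 14, 63145150 to 63179578), had 99.8, 111.1 and 149.5 CPM in MiRNC149, MiRNC640 and MiRNC670, against 68.7, 76.6 and 71.4 CPM in Nf803, Nf809 and Nf827. The groups did not overlap, and the log2 fold change was 0.73 (SE 0.17, edgeR adjusted p = 0.0403). Of its exon bases, 18.3% overlap exons of the neighbouring Ctsb, a cathepsin gene that fell (log2 fold change -0.63, SE 0.13, edgeR adjusted p = 0.0334), so reads there could be shared or dropped.

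Nsdhl and Hsd17b7 act one after the other in removing the methyl groups at carbon 4 of the sterol ring. Nsdhl, a sterol dehydrogenase (chromosome X, 72918557 to 72958514), had 47.3, 69.4 and 66.2 CPM in MiRNC149, MiRNC640 and MiRNC670, against 39.8, 35.2 and 28.4 CPM in Nf803, Nf809 and Nf827. Its log2 fold change was 0.82 (SE 0.20, edgeR adjusted p = 0.0485). Hsd17b7, a 3-ketosteroid reductase (chromosome 1, 169949535 to 169969241), had 36.6, 58.2 and 59.6 CPM in MiRNC149, MiRNC640 and MiRNC670, against 25.9, 21.8 and 28.3 CPM in Nf803, Nf809 and Nf827. Its log2 fold change was 1.02 (SE 0.23, edgeR adjusted p = 0.0365). Neither gene overlaps another annotated exon or shares a window of 50 bases with another gene, and in both MiRNC149 was the lowest tumour of its group and still above every Nf1KO tumour. Msmo1, the oxidase that starts the same demethylation, had 20.7, 34.4 and 37.5 CPM in MiRNC149, MiRNC640 and MiRNC670, against 17.9, 21.7 and 21.5 CPM in Nf803, Nf809 and Nf827. Its groups overlapped through MiRNC149, and it was not called (log2 fold change 0.60, SE 0.25, edgeR adjusted p = 0.171).

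**Figure D1:**
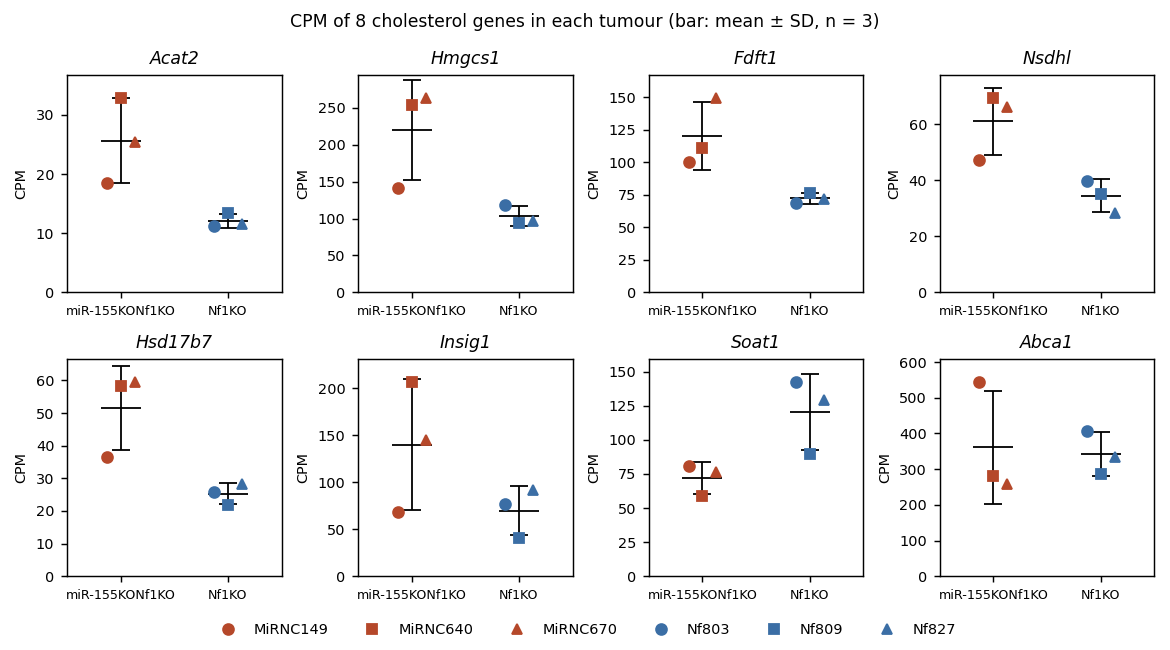
Level of 8 cholesterol genes in CPM (vertical axis, from 0) in each tumour, with miR-155KONf1KO on the left of each panel, Nf1KO on the right, and bars for the mean and SD of 3 tumours. The 5 called genes have non-overlapping groups with MiRNC149 lowest in its own group, Insig1 and Abca1 overlap, and Soat1 runs from 59.0 to 80.5 CPM in miR-155KONf1KO, below the 89.5 to 142 CPM of Nf1KO.

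None of the other sterol enzymes, those that close and finish the ring, was called by edgeR. Lss, the cyclase that forms lanosterol, ran from 64.8 to 96.2 CPM in miR-155KONf1KO and from 50.7 to 51.6 CPM in Nf1KO, with no overlap and an edgeR adjusted p of 0.0515 (log2 fold change 0.65, SE 0.17). Sqle, the squalene epoxidase, ran from 89.2 to 130.1 CPM in miR-155KONf1KO and from 67.8 to 82.5 CPM in Nf1KO (log2 fold change 0.52, SE 0.17, edgeR adjusted p = 0.105). Sc5d and Dhcr7, which act at the end of the pathway, differed by 0.73 (SE 0.31) and 0.60 (SE 0.25) on the log2 scale, neither called, with overlap through MiRNC149. For Cyp51, the lanosterol demethylase, the value was 0.29 (SE 0.22), for Ebp, the sterol isomerase, 0.04 (SE 0.23), and for Tm7sf2, a sterol C14 reductase, -0.14 (SE 0.35). Lbr, which shares the C14 reductase activity and is also an anchor of chromatin at the nuclear envelope, had 31.7, 31.7 and 21.3 CPM in MiRNC149, MiRNC640 and MiRNC670, against 36.1, 40.1 and 41.0 CPM in Nf803, Nf809 and Nf827. It was the 1 synthesis gene whose miR-155KONf1KO tumours all lay below the Nf1KO tumours, and it was not called (log2 fold change -0.47, SE 0.19, edgeR adjusted p = 0.175). The value of Tm7sf2 turned positive without Nf809 (0.0024), without Nf827 (0.04) and without both MiRNC640 and Nf809 (0.14).

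**Figure D2:**
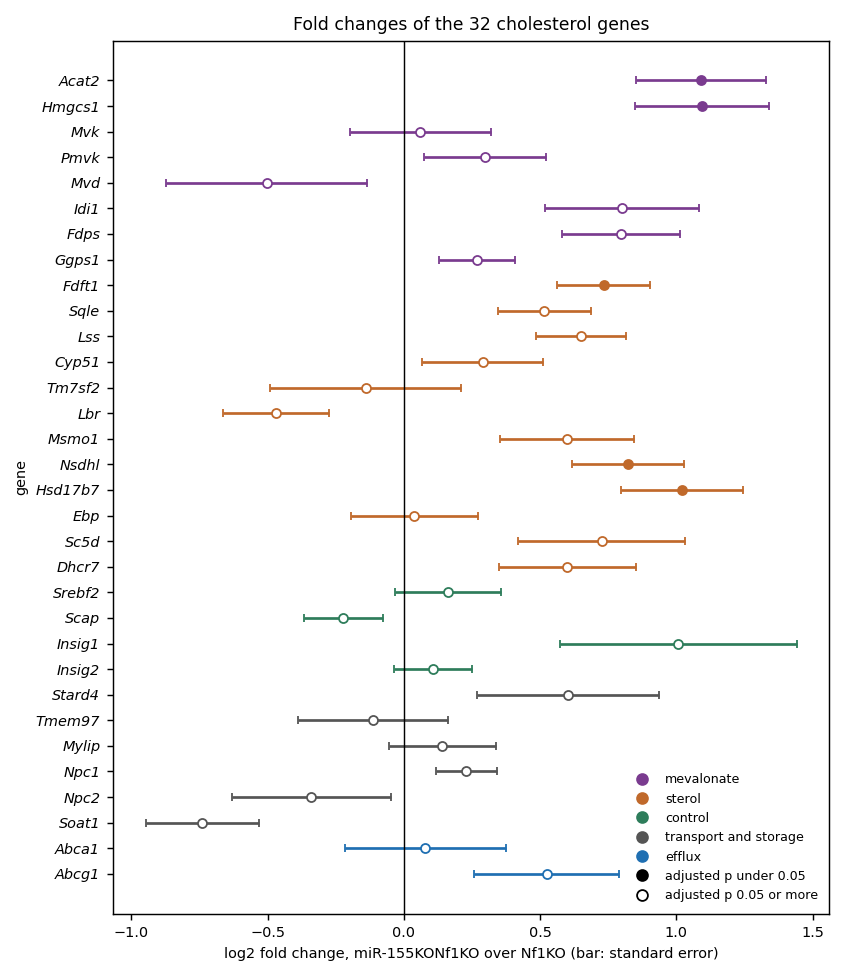
Log2 fold change of miR-155KONf1KO over Nf1KO for each of the 32 genes (horizontal axis, bars are standard errors), coloured by role, with filled points for an edgeR adjusted p under 0.05. The 5 filled points are all synthesis genes between 0.73 and 1.10, and Soat1 lies lowest at -0.74.

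Across the 20 synthesis genes, 17 had a positive and 3 a negative log2 fold change, while over all tested genes 7885 were positive and 7719 negative. An unadjusted p under 0.05 was reached by 13 of the 20, or 65%, against 26.7% of all tested genes. CPM ranges did not overlap for 11 of the 20, against 32.6% of tested genes, and 10 of these were higher in miR-155KONf1KO, against 16.3% of tested genes. DESeq2 called 7 members higher, all in synthesis (the same 5 with Fdps and Lss), and 1 lower, Soat1, against 8.49% and 8.29% of its tested genes.

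The tumours of miR-155KONf1KO were not alike in these genes. MiRNC149 was the lowest of its group for 14 of the 20 synthesis genes, whereas MiRNC640 and MiRNC670 were lowest for 3 each. MiRNC149 exceeded all Nf1KO tumours in 10 of the 20 genes, MiRNC640 in 16 and MiRNC670 in 15. The mean log2 CPM of the 20 genes, set against the Nf1KO mean, was 0.18, 0.56 and 0.60 in MiRNC149, MiRNC640 and MiRNC670, against -0.03, 0.02 and 0.00088 in Nf803, Nf809 and Nf827. The Nf1KO tumours thus lay close together (SD 0.0246, n = 3), and the spread of miR-155KONf1KO (SD 0.236, n = 3) came from MiRNC149. By the counts MiRNC149 was the only female tumour of its group, so within that group sex and other differences of MiRNC149 cannot be told apart. The calls changed when tumours were left out. Without MiRNC149 edgeR called 9 members and 808 genes of the whole table higher, and without Nf809 2 members (Acat2 and Fdft1) and 1183 genes. Without MiRNC640 it called 0 members and 99 genes higher, and without MiRNC670, Nf803 or Nf827 it called 0 members and 0 genes. It also called 0 members higher without both muscle-rich tumours, where 568 genes were, and 0 without MiRNC640 and Nf809, where 982 were. The synthesis medians of these fits were 0.47 and 0.51, against 0.60 with all tumours. Without both muscle-rich tumours the edgeR adjusted p was 0.114 for Acat2, 0.184 for Hmgcs1 and 0.104 for Fdft1. Without MiRNC640 and Nf809 the values were 0.0681, 0.118 and 0.0665. Nsdhl and Hsd17b7 also lost their calls in both fits. Once sex was added as a covariate, edgeR again called 0 members, and the 5 genes had log2 fold changes from 0.64 (Fdft1) to 0.93 (Hmgcs1 and Hsd17b7) and adjusted p from 0.0547 (Acat2) to 0.0972 (Nsdhl).

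**Figure D3:**
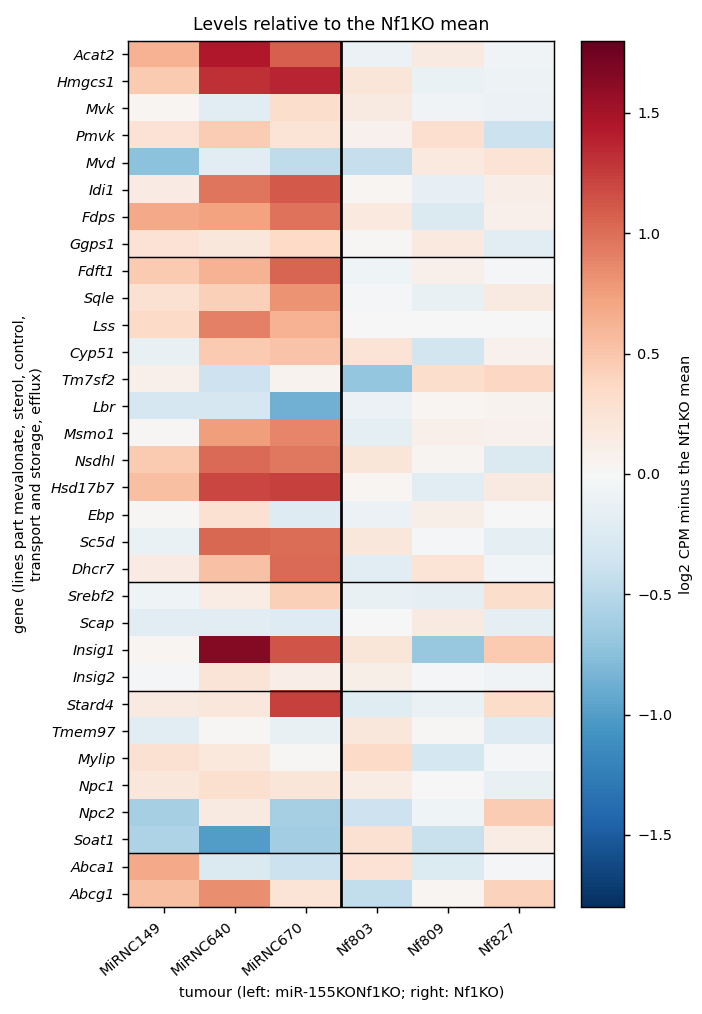
Log2 CPM of the 32 genes in each tumour minus the Nf1KO mean of the gene (colour scale, red above and blue below), with miR-155KONf1KO columns left of the vertical line and Nf1KO columns right of it. Most synthesis rows are deepest red in MiRNC640 and MiRNC670 and paler in MiRNC149, whose mean over synthesis genes is 0.18, while Insig1 is red in MiRNC640 and MiRNC670 at 1.65 and 1.14 and near white in MiRNC149 at 0.04.

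The control genes did not follow the synthesis genes as a set, and 0 of 4 were called by edgeR. Srebf2, which encodes SREBP-2 (chromosome 15, 82147181 to 82205379), had 59.7, 68.9 and 85.1 CPM in MiRNC149, MiRNC640 and MiRNC670, against 57.6, 55.5 and 78.1 CPM in Nf803, Nf809 and Nf827. The groups overlapped (log2 fold change 0.16, SE 0.19, edgeR adjusted p = 0.656). Its escort Scap ran from 34.3 to 35.3 CPM in miR-155KONf1KO and from 36.0 to 45.2 CPM in Nf1KO (log2 fold change -0.22, SE 0.15), without overlap. Insig2, the other INSIG gene, ran from 37.6 to 45.3 CPM in miR-155KONf1KO and from 37.0 to 41.6 CPM in Nf1KO (log2 fold change 0.11, SE 0.14). Transcript levels do not measure the cleavage of SREBP-2.

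Insig1, itself a target of SREBP in sterol-poor cells, had the most uneven values of the 4. It had 67.9, 207 and 146 CPM in MiRNC149, MiRNC640 and MiRNC670, against 76.8, 41.0 and 91.3 CPM in Nf803, Nf809 and Nf827. Its log2 fold change of 1.01 (SE 0.43, edgeR adjusted p = 0.192) was close to that of Hsd17b7 but did not pass. MiRNC149 lay below 2 of the Nf1KO tumours, and without it Insig1 had a log2 fold change of 1.35 and still did not pass (edgeR adjusted p = 0.0626). Without MiRNC640 and Nf809, the tumours with most and fewest adipocyte transcripts, a choice made after the data were seen, the value for Insig1 was 0.35. The summed level of 8 adipocyte markers was 106, 2206 and 617 CPM in MiRNC149, MiRNC640 and MiRNC670, against 358, 40.9 and 315 CPM in Nf803, Nf809 and Nf827, and the marker Lep had 0 reads in at least 1 tumour. Insig1 and the adipocyte sum were both highest in MiRNC640, next in MiRNC670 and lowest in Nf809. The part of adipocytes in the Insig1 values was not tested.

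Genes of uptake, transport and storage split in both directions, and 0 of 6 were called by edgeR. Soat1, which esterifies cholesterol for storage in droplets (chromosome 1, 156424525 to 156474331), had 80.5, 59.0 and 76.6 CPM in MiRNC149, MiRNC640 and MiRNC670, against 142, 89.5 and 129 CPM in Nf803, Nf809 and Nf827. The groups did not overlap, with Nf809 nearest to miR-155KONf1KO, and the log2 fold change was -0.74 (SE 0.21, edgeR adjusted p = 0.0663). DESeq2 called it (adjusted p = 0.0144), as did edgeR without Nf809 (0.0135), without Nf809 and MiRNC670 (0.0462) and without Nf809 and MiRNC640 (0.0257). Macrophages are a main site of SOAT1 in many tissues, and 5 of 10 macrophage markers fell and 0 rose, with summed levels of 555 to 1136 CPM in miR-155KONf1KO and 1424 to 2454 CPM in Nf1KO. None of the markers was at 0. In bulk tumour RNA, fewer cells of a type and less RNA per cell cannot be told apart, and the part of macrophages in the Soat1 values was not tested.

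The lysosomal pair that releases cholesterol taken up by endocytosis did not move together. Npc1, the membrane transporter, had 175, 184 and 176 CPM in MiRNC149, MiRNC640 and MiRNC670, against 166, 152 and 138 CPM in Nf803, Nf809 and Nf827. The groups did not overlap, but the difference was small (log2 fold change 0.23, SE 0.11, edgeR adjusted p = 0.248). Its soluble partner Npc2 had 36.9, 62.6 and 36.7 CPM in MiRNC149, MiRNC640 and MiRNC670, against 43.0, 52.7 and 76.7 CPM in Nf803, Nf809 and Nf827, with overlap and a log2 fold change of -0.34 (SE 0.29). Mylip, the ubiquitin ligase that marks lipoprotein receptors for degradation, had 43.5, 41.3 and 36.4 CPM in MiRNC149, MiRNC640 and MiRNC670, against 45.6, 29.0 and 35.3 CPM in Nf803, Nf809 and Nf827. It overlapped fully (log2 fold change 0.14, SE 0.20). Stard4, a sterol carrier of the cytosol, was at 34.1 CPM in MiRNC670 and between 16.2 and 16.6 CPM in the other miR-155KONf1KO tumours, against 12.5 to 18.3 CPM in Nf1KO, so its log2 fold change of 0.60 (SE 0.33) rested on MiRNC670. Tmem97, a sterol-responsive membrane protein that binds NPC1, stood at -0.11 (SE 0.28) in log2 fold change, and 20.8% of its windows occur in another annotated transcript.

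The efflux transporters were not called, and their tumours were ordered differently from the synthesis genes. Abca1, which loads cholesterol onto lipid-poor apolipoprotein (chromosome 4, 53030787 to 53159895), had 544, 282 and 259 CPM in MiRNC149, MiRNC640 and MiRNC670, against 407, 286 and 334 CPM in Nf803, Nf809 and Nf827. MiRNC149, lowest for most synthesis genes, was the highest of the 6 tumours, and MiRNC640 and MiRNC670 were the lowest. The log2 fold change was 0.08 (SE 0.30, edgeR adjusted p = 0.900), and it was -0.33 without MiRNC149 and -0.03 without Nf809. Abcg1, which passes cholesterol to mature lipoprotein particles (chromosome 17, 31057675 to 31117988), had 22.9, 28.0 and 18.5 CPM in MiRNC149, MiRNC640 and MiRNC670, against 11.4, 16.0 and 20.8 CPM in Nf803, Nf809 and Nf827, and a log2 fold change of 0.52 (SE 0.27, edgeR adjusted p = 0.261). Per kilobase of exon, Abca1 was far above Abcg1, at 34.9 against 3.17 CPM per kilobase within miR-155KONf1KO.

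Synthesis set against efflux gave no clean separation of the groups. The synthesis median exceeded the efflux median by 0.30 in log2 fold change, but efflux rests on 2 genes. The difference between the mean log2 CPM of the synthesis genes and that of the efflux genes, each relative to the Nf1KO mean, was -0.44, 0.28 and 0.67 in MiRNC149, MiRNC640 and MiRNC670, against 0.07, 0.13 and -0.20 in Nf803, Nf809 and Nf827. MiRNC149 was the lowest of all 6 tumours and the other miR-155KONf1KO tumours were the highest, so the groups overlapped. The difference of medians was 0.69 without MiRNC149, -0.07 without MiRNC670, 0.09 without MiRNC670 and Nf809, and 0.05 with sex as a covariate.

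**Figure D4:**
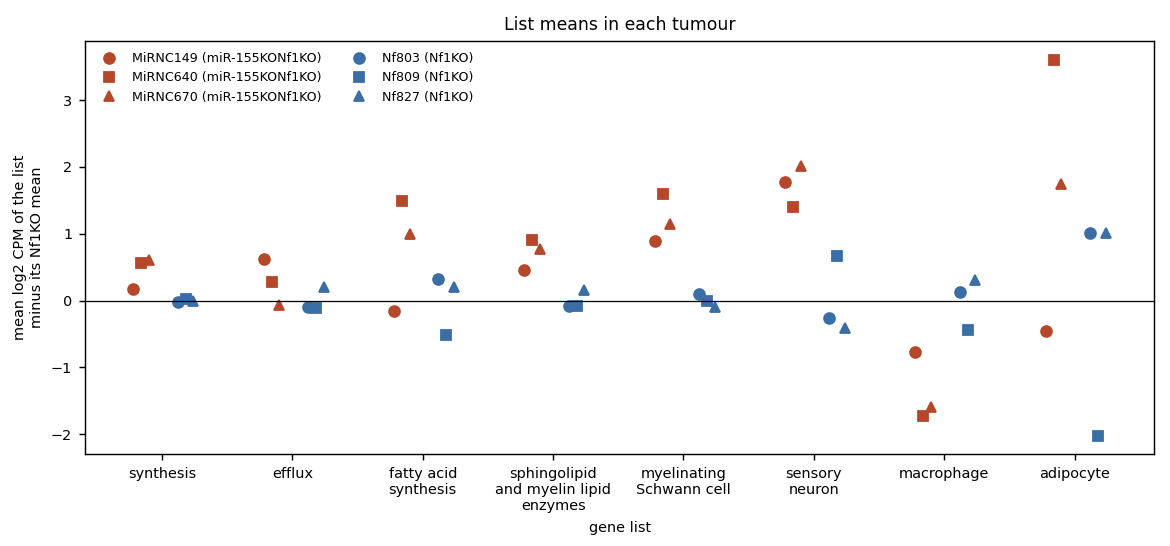
Mean log2 CPM of 8 gene lists in each tumour minus the Nf1KO mean of the list (vertical axis), with miR-155KONf1KO tumours on the left of each list and Nf1KO tumours on the right. Synthesis, sphingolipid, myelin and sensory neuron lists lie above Nf1KO in all 3 miR-155KONf1KO tumours, and the macrophage list lies below. Fatty acid synthesis follows the adipocyte list, with MiRNC640 highest and Nf809 lowest in both.

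Other sterol and lipid genes place these values. Of 24 further genes of sterol regulation and transport, 1 rose and 1 fell, with a median log2 fold change of -0.03. Over all tested genes edgeR called 5.22% higher and 4.74% lower, and 1 of 24 each way is close to these shares. The same shares apply to the counts of the lists that follow. Lrp8, a lipoprotein receptor best known in neurons, had 24.8, 20.7 and 33.3 CPM in MiRNC149, MiRNC640 and MiRNC670, against 7.33, 10.6 and 13.1 CPM in Nf803, Nf809 and Nf827 (log2 fold change 1.34, SE 0.28, edgeR adjusted p = 0.0313). Nfya, which encodes a subunit of NF-Y, had 72.2, 52.2 and 64.8 CPM in MiRNC149, MiRNC640 and MiRNC670, against 100.4, 96.8 and 97.6 CPM in Nf803, Nf809 and Nf827. It fell (log2 fold change -0.64, SE 0.15, edgeR adjusted p = 0.0395), and the other subunit genes, Nfyb and Nfyc, had values of 0.01 and 0.03. A link of Nfya to the synthesis genes was not tested. Of 14 genes of LXR signalling and efflux, 2 rose and 0 fell, with a median of 0.16. The 2 were the transporter genes Abca2, which is abundant in myelinating cells (0.78, SE 0.16, edgeR adjusted p = 0.031), and Abca5 (1.09, SE 0.25, edgeR adjusted p = 0.0395). In this list 8 log2 fold changes were positive and 6 negative. Apod (-1.33, SE 0.36, edgeR adjusted p = 0.0611) and Cyp27a1 (-1.01, SE 0.28, edgeR adjusted p = 0.0655), named after their values were seen, were lower without overlap but not called. Of 8 genes that use isoprenoids, Fntb, the beta subunit of protein farnesyltransferase, rose (1.18, SE 0.23, edgeR adjusted p = 0.0275), and the median was 0.07. Without MiRNC670 and Nf809, edgeR called none of Lrp8, Nfya, Abca2, Abca5 and Fntb, with adjusted p from 0.0746 (Abca2) to 0.124 (Fntb). Without MiRNC640 and Nf809, Lrp8, Abca2 and Abca5 were called, and Nfya (edgeR adjusted p = 0.0842) and Fntb (0.0677) were not. Their log2 fold changes kept their signs in both fits.

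The lipid pathways next to cholesterol divided by tumour. Of 13 fatty acid synthesis genes, 1 rose and 0 fell, although the median was 1.17. The one was Scd2, a desaturase of brain and nerve, with 1516, 1593 and 1615 CPM in MiRNC149, MiRNC640 and MiRNC670, against 1135, 1019 and 949.5 CPM in Nf803, Nf809 and Nf827 (log2 fold change 0.61, SE 0.12, edgeR adjusted p = 0.0277). Fasn, the fatty acid synthase, named after its values were seen, had 166, 2115 and 961 CPM in MiRNC149, MiRNC640 and MiRNC670, against 488, 124 and 445 CPM in Nf803, Nf809 and Nf827 and was not called. Its log2 fold change was 1.62, against 0.27 without MiRNC640 and Nf809, and the list median without them was 0.45. Without MiRNC670 and Nf809 Fasn stood at 1.28 and the list median at 0.95, and edgeR called Scd2 in neither fit (adjusted p = 0.108 without MiRNC670 and Nf809, 0.0655 without MiRNC640 and Nf809). The list mean ran from -0.16 to 1.497 in miR-155KONf1KO and from -0.52 to 0.33 in Nf1KO, with MiRNC640 highest and Nf809 lowest, as for the adipocyte sum given above, whose part was not tested.

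Of 10 sphingolipid and myelin lipid enzymes, 3 rose and 0 fell, with a median of 0.49. Ugt8a, which makes the myelin lipid galactosylceramide, had 180.0, 513 and 350.0 CPM in MiRNC149, MiRNC640 and MiRNC670, against 74.4, 68.3 and 74.3 CPM in Nf803, Nf809 and Nf827. It rose by 2.27 (SE 0.35, edgeR adjusted p = 0.0212) in log2 fold change. Fa2h, which hydroxylates the fatty acid of that lipid, rose by 1.71 (SE 0.30, edgeR adjusted p = 0.0254), and Elovl7, a fatty acid elongase, by 1.90 (SE 0.22, edgeR adjusted p = 0.0186). All 3 were called without MiRNC640 and Nf809, and without MiRNC670 and Nf809 only Elovl7 was, with edgeR adjusted p of 0.0662 for Ugt8a and 0.0537 for Fa2h. All 3 genes were higher in every miR-155KONf1KO tumour than in any Nf1KO tumour, as were 16.3% of all tested genes.

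Myelin transcripts were also higher in miR-155KONf1KO. Of 10 markers of myelinating Schwann cells, 7 rose and 0 fell, with summed levels of 10812 to 21594 CPM in miR-155KONf1KO and 5924 to 7032 CPM in Nf1KO. Their list mean was 0.89, 1.60 and 1.14 above Nf1KO in MiRNC149, MiRNC640 and MiRNC670. MiRNC149 was lowest of its group here, as in the synthesis, fatty acid, sphingolipid and adipocyte lists, but the highest was MiRNC640, where the synthesis list was highest in MiRNC670. Without MiRNC670 and Nf809, 2 of the 10 myelin markers were called higher by edgeR, and without MiRNC640 and Nf809 it was 7. Of 8 markers of the whole Schwann cell lineage, 1 rose, S100b, and the mean was highest in MiRNC149 (0.62, against 0.29 and 0.37 in MiRNC640 and MiRNC670). Of 10 sensory neuron markers, 7 rose and 0 fell, with summed levels of 5272 to 8315 CPM in miR-155KONf1KO and 1276 to 2486 CPM in Nf1KO, and of 8 fibroblast markers 5 fell and 0 rose, with summed levels of 5213 to 6782 CPM in miR-155KONf1KO and 11760 to 12467 CPM in Nf1KO. None of these markers was at 0 in a tumour. The part of each cell type in the synthesis values was not tested.

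The members were last searched for sites of the missing microRNA, since a direct target would be expected to rise when it is lost. The mature strand is given with its seed, bases 2 to 8, in capitals.
mmu-miR-155-5p: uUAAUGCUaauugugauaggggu
Sites were matches to the seed (AGCATTA) or to its end followed by A (GCATTAA) in the longest 3′ UTR that GENCODE M21 annotates for a gene (GRCm38). Hsd17b7 and Soat1 each had 1 match to the seed with no A after it, and 13.1% of 21130 protein-coding genes had a site of any kind. Both sites are shown within 30 bases, with the match in capitals.
Hsd17b7: tttgggccacaAGCATTAttttcggtcttt
Soat1: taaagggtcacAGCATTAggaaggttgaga
The match lay at chr1:169952476-169952482 for Hsd17b7 (minus strand) and at chr1:156427158-156427164 for Soat1 (minus strand). Hsd17b7 was called higher, and Soat1 differed by -0.74 on the log2 scale without being called by edgeR. Of the 5 called synthesis genes, 4 had no such site in the 3′ UTR searched.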

How the data were processed

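The table the authors deposited gives unscaled counts, whole numbers of reads, for each gene symbol in each of the 6 tumours. Tools named per the submitters' processing notes are featureCounts 1.5.2 and HISAT2 2.0.5, with the genome mm10. Annotation, strand setting and the treatment of multi-mapping reads were not given in the sources used here. Per the labels' protocols, libraries were made with a Nextera XT kit.

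Counts were tested with edgeR 4.0.16 in R 4.3.3 (filterByExpr with minimum count 10 and total 15, TMM, quasi-likelihood test, two-sided, Benjamini-Hochberg over 15604 genes, called under 0.05), with the genotype as the only term. The procedure was tested on simulated data. SE is that implied by the F statistic. CPM is per 1e6 TMM-scaled reads, and log2 CPM used a prior count of 2. Exon lengths, overlaps, windows of 50 bases and 3′ UTRs came from GENCODE M21, and promoter and microRNA sequences from RefSeq, both on GRCm38, the assembly that mm10 names. Replicate tumours differed by at least 23.3 times the variance of Poisson sampling, so none was counted as a repeat. The depth leaves counting error small for all but the lowest members, and the 3 tumours per group set the precision.

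The members and lists were chosen with earlier results of these data known. All 32 members are named, with the called genes of each further list. Alternatives were other scalings, filters, DESeq2 1.42.0, limma voom (limma 3.58.1), sex read from the counts as a covariate, a threshold of 0.1, and leaving out tumours. One result of the search for microRNA sites is not reported here.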

Additional observations from a re-analysis of the deposited data

How the results depend on the processing

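Among the fits with all 6 tumours and genotype as the only term, 4 to 7 members were called higher, and the synthesis median stayed between 0.54 and 0.61. DESeq2 called 1477 genes higher and 1441 lower, and 1 member lower (Soat1), as did edgeR at an adjusted p under 0.1 (1 lower). With sex as a covariate edgeR called 534 genes higher and 0 members higher. Leaving out 1 tumour at a time gave 0 to 1183 genes higher, 0 to 1059 lower, 0 to 9 members higher, 0 to 1 members lower, and a synthesis median from 0.37 (without MiRNC670) to 0.79 (without MiRNC149). In the fits without MiRNC670, Nf803 or Nf827 edgeR called 0 genes in the whole table, with 3240, 3335 and 3265 at an unadjusted p under 0.05. Without MiRNC670 and Nf809, and without MiRNC640 and Nf809 (chosen after seeing the data), 0 members were called higher and 1 lower. The 5 called synthesis genes kept a positive log2 fold change in all 16 alternatives run for each, while Abca1 was below 0 in 2. The cause of these changes was not tested. No paired analysis was possible because the tumour numbers of the groups are all different. Depth limits Mvd most, with 31 to 63 reads in a tumour.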
